A study of Mus musculus with 12 samples.

Results

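Genes of steroid hormone reception and local steroid activation were followed in bulk RNA of the mouse lateral septum, 8 of the 54532 in the deposited table. They were chosen by name: the glucocorticoid receptor gene Nr3c1, the mineralocorticoid receptor gene Nr3c2, the glucocorticoid-regenerating enzyme gene Hsd11b1, the receptor co-chaperone gene Fkbp4, the oestrogen receptor genes Esr1 and Esr2, the progesterone receptor gene Pgr, and the membrane progestin receptor gene Paqr7. Each matched 1 row. Of 12 wild-type libraries labelled day 3, 6 belonged to a group injected with CFA and 6 to a group injected with saline. CFA commonly stands for complete Freund's adjuvant, an oil emulsion with killed mycobacteria that inflames the injected tissue for weeks. No strain, age or sex is given in the sources used here. Nothing there says that each library is a separate animal, so a p-value reflects only how these samples scatter, which may be technical.

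Steroid hormones cross the membrane and bind nuclear receptors, which then act on DNA as transcription factors. Unliganded receptors are held ready by the Hsp90 chaperone machine, in which the immunophilin co-chaperones encoded by Fkbp4 and Fkbp5 compete for the same place: the Fkbp4 product favours hormone binding and transport to the nucleus, and the Fkbp5 product opposes both. The mineralocorticoid receptor of the forebrain binds corticosterone tightly, so that it is largely occupied at rest, while the glucocorticoid receptor fills at stress levels. The enzyme encoded by Hsd11b1 turns the inert keto form of corticosterone back into the active hormone inside the cell. Progestins and oestrogens also signal at membranes, and Paqr7 encodes a multipass progestin receptor found in brain. The lateral septum, a forebrain nucleus that links hippocampus and hypothalamus, is among the regions known to bind oestrogens and glucocorticoids.

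None of the 8 genes passed the test between CFA and saline. Paqr7 came nearest, with every CFA library below every saline library and a ratio of 0.855, and Fkbp4 was lower in 5 of 6 CFA libraries than in any saline library. The nuclear receptor genes Nr3c1, Nr3c2, Esr1, Esr2 and Pgr, and the enzyme gene Hsd11b1, had overlapping groups. Values are in FPKM, which divides the fragments of a gene by its length and by the depth of the library, so that genes can be set side by side. Every log2 fold change is the CFA mean less the saline mean of log2(FPKM + 1), and the added 1 shrinks differences of low genes. A ratio of CFA to saline is that value unlogged, and so refers to FPKM + 1. The test was limma with Benjamini-Hochberg adjustment over 13345 genes with at least 1 FPKM in at least 6 libraries, and the threshold was 0.05. By it 4 of the 13345 genes passed (0.03%), and 0 of the 6 tested members did. At an unadjusted p under 0.05 there were 2 members, Paqr7 and Fkbp4, both lower in CFA, beside 7.67% of all genes tested in either direction and 4.56% lower in CFA. Voom on recovered reads also called 0 of the 6.

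The libraries held 35.5 to 39.2 M reads in the CFA group and 33.6 to 38.4 M reads in the saline group. None of the 12 lateral septum neuron markers was at 0 in all libraries, with summed levels of 643 to 798 FPKM in CFA libraries and 712 to 810 FPKM in saline libraries. The summed striatal markers, 10 genes of a neighbouring region, ranged from 130 to 478 FPKM in CFA libraries and from 136 to 254 FPKM in saline libraries. Choroid plexus markers summed to between 19.7 and 62.4 FPKM in CFA libraries and between 19.3 and 2356 FPKM in saline libraries, and Ttr, the main transcript of that tissue, was 2259 FPKM in saline 3 and 701 FPKM in saline 5. Xist, expressed from the inactive X chromosome of females, reached at least 1 FPKM in 5 CFA and 2 saline libraries, and the Y-linked Ddx3y in 1 CFA and 4 saline libraries. With Xist as a covariate, 0 of the 8 genes passed.

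**Figure D1:**
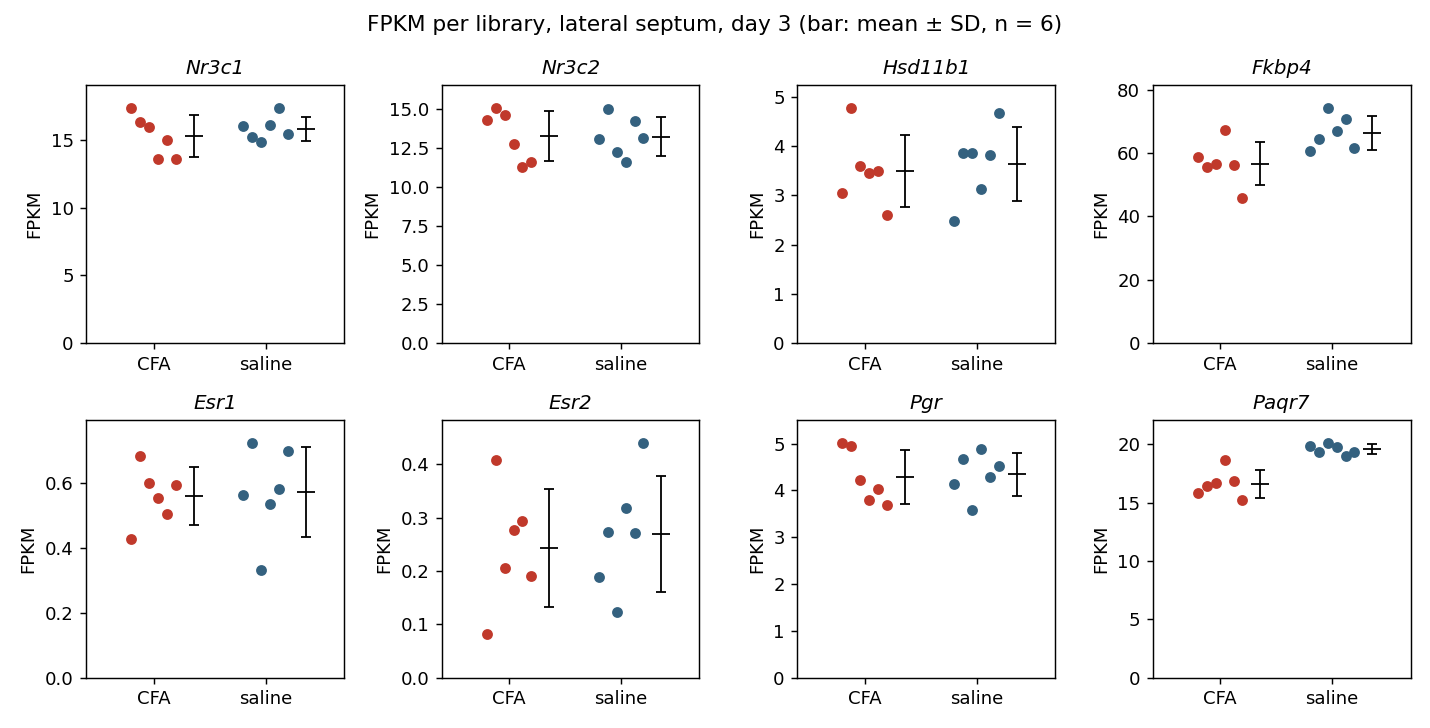
FPKM of the 8 genes in each of the 12 libraries, CFA left and saline right, each axis starting at 0, points for libraries 1 to 6 from left to right and a bar for the mean ± SD (n = 6 per group). The Paqr7 points separate, 15.2 to 18.7 FPKM in CFA and 19.0 to 20.1 FPKM in saline, while the points of the nuclear receptor genes overlap.

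By mean over the 12 libraries, Fkbp4 was the highest of the 8 at 61.6 FPKM, followed by Paqr7 at 18.1, Nr3c1 at 15.6, Nr3c2 at 13.3, Pgr at 4.32, Hsd11b1 at 3.57, Esr1 at 0.565 and Esr2 at 0.256 FPKM. Fkbp4 lay above Paqr7, Nr3c1 above Nr3c2, Nr3c2 above Pgr, Hsd11b1 above Esr1 and Esr1 above Esr2 in 12 of 12 libraries. Paqr7 exceeded Nr3c1 in 11 of 12, the exception being a CFA library, and the means of these 2 genes were 1.16-fold apart. Pgr exceeded Hsd11b1 in 6 of 6 CFA but 4 of 6 saline libraries, so the order of these neighbours was not fixed beyond the spread. Both oestrogen receptor genes stayed under 1 FPKM in all 12 libraries and did not enter the test of 13345 genes, which leaves 6 tested members. The 2 were tested with all 34499 genes that had any reads, of which 0.0058% passed, and neither did.

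Paqr7, the membrane progestin receptor gene (ENSMUSG00000037348, chromosome 4, 134496697 to 134510235, plus strand, mm10), had a lowest, median and highest level of 15.2, 16.6 and 18.7 FPKM in CFA libraries, against 19.0, 19.6 and 20.1 FPKM in saline libraries. The groups did not overlap, which held with CFA below saline for 0.292% of all genes tested. CFA 6 was the lowest library and CFA 4 the highest of its group, just under the lowest saline library, saline 5. The means were 16.6 ± 1.17 FPKM in CFA and 19.6 ± 0.427 FPKM in saline (SD, n = 6 each), so the CFA libraries also spread more widely. The log2 fold change was -0.23 (SE 0.045), a ratio of 0.855 with a 95% interval of 0.800 to 0.914, and missed the threshold after adjustment (limma unadjusted p = 0.000198, adjusted p = 0.156, the 17th smallest p of 13345). An exact permutation test of this gene alone gave p = 0.00216, the smallest that 6 libraries against 6 allow (two-sided, unadjusted). Without CFA 4 the limma adjusted p was 0.0248 with a log2 fold change of -0.26, in a fit where 6 of 13345 genes passed (0.045%). In that fit 1846 genes had an unadjusted p under 0.05, against 1024 with all libraries. Leaving out any other library gave adjusted p-values up to 0.321.

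Since no CFA library reached the lowest saline library in Paqr7, the groups separate in any subset of libraries. The values of libraries alike in Xist are therefore a description and no test of the imbalance in Xist. Over the libraries with Xist, Paqr7 was 15.2 to 18.7 FPKM in 5 CFA libraries and 19.0 to 19.3 FPKM in 2 saline libraries. Without Xist there was 1 CFA library, at 16.7 FPKM, and 4 saline libraries at 19.3 to 20.1 FPKM. The log2 fold change was -0.21 with Xist as a covariate (adjusted p = 0.487) and -0.20 over the libraries with Xist (adjusted p = 0.999). Pan-neuronal markers had slightly lower means in CFA: none of 10 was at 0 in all libraries, their sum was 1038 to 1241 FPKM in CFA libraries and 1113 to 1269 FPKM in saline libraries, and their mean log2(FPKM + 1) was 6.56 ± 0.0752 in CFA and 6.63 ± 0.0623 in saline (SD, n = 6 each). Lateral septum neuron markers averaged 4.83 ± 0.131 in CFA and 4.93 ± 0.0899 in saline on that scale. Striatal markers averaged 3.94 ± 0.780 in CFA and 3.49 ± 0.363 in saline, and were highest in CFA 1 (5.06) and CFA 6 (4.61). The log2 fold change of Paqr7 was -0.20 with striatal markers as a covariate (limma adjusted p = 0.187). It was -0.23 with oligodendrocyte markers (adjusted p = 0.138) and -0.23 with hypothalamic markers (adjusted p = 0.112). These fits do not measure the part of cell content, neuronal or other, in the Paqr7 difference, which was not tested. In bulk tissue, fewer cells of a type and less RNA per cell cannot be told apart.

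Fkbp4, encoding the Hsp90 co-chaperone that favours hormone binding (ENSMUSG00000030357, chromosome 6, 128429735 to 128438677, minus strand), had a lowest, median and highest level of 45.8, 56.4 and 67.2 FPKM in CFA libraries, against 60.5, 65.7 and 74.2 FPKM in saline libraries. Of the CFA libraries 5 lay below every saline library, and CFA 4 lay within the saline range, so the groups overlapped. The mean was 56.7 ± 6.86 FPKM in CFA and 66.4 ± 5.31 FPKM in saline (SD, n = 6 each). With a log2 fold change of -0.23 (SE 0.078, 95% interval -0.40 to -0.062), Fkbp4 did not pass (limma unadjusted p = 0.011, adjusted p = 0.453; exact permutation p = 0.0216, two-sided and unadjusted). Leaving out CFA 4 gave -0.28 and leaving out CFA 6 gave -0.17, and without saline 3 and saline 5, the libraries rich in Ttr, it was -0.17 (adjusted p = 0.695).

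Starts of transcription are shown for Paqr7 and Fkbp4 because these members had the lowest values in CFA relative to saline. RefSeq (GRCm38.p6) gives Paqr7 a pair of starts, of which the window that held any motif searched is printed, chr4:134496791-134497090 on the plus strand, and the Fkbp4 window is chr6:128438607-128438906 on the minus strand. Each runs 5′ to 3′ along the gene's strand, from 250 bases before the start to 50 bases after it. Capitals mark the GC box GGGCGG and the oestrogen receptor core GGTCA, on either strand, so that they can appear as CCGCCC and TGACC.
Paqr7: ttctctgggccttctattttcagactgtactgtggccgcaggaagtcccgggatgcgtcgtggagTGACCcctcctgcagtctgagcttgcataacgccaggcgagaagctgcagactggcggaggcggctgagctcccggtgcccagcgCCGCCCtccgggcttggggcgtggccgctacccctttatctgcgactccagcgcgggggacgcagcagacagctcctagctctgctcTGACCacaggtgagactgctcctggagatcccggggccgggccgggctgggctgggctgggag
Fkbp4: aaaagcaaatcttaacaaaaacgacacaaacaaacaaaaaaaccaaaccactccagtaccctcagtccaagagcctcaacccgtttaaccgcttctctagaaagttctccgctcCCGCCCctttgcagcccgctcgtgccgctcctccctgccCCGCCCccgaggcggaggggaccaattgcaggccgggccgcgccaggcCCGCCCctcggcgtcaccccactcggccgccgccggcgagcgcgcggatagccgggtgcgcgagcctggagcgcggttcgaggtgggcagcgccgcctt
The printed Paqr7 window held 1 GC box and 2 GGTCA cores, and the Fkbp4 window held 3 GC boxes and 0 GGTCA cores. The other Paqr7 window, chr4:134496511-134496810, held 0 of both motifs. The GC content was 67.0% for the printed Paqr7 window, 52.3% for the other Paqr7 window and 65.3% for Fkbp4. Among the windows of the other members searched, those of Nr3c2 held 3 GC boxes and 2 GGTCA cores, Pgr 1 GC box, Esr1 1 GGTCA core and Esr2 2 GGTCA cores, and the Hsd11b1 window held neither motif. Of the 32851 RefSeq windows of the same length, 35.7% held a GC box and 40.5% a GGTCA core. The printed Paqr7 window was picked for holding a motif, so its matches cannot be set against these shares. Neither printed window held the full glucocorticoid receptor element, AGAACA and TGTTCT with any 3 bases between (0.00913% of windows). Both printed windows also lacked the hexamer TGTTCT (19.0%), which that element contains. Nor did they hold the full oestrogen receptor element, GGTCA and TGACC with any 3 bases between (0.0700%), or the heat shock element, GAA, TTC and GAA with any 2 bases between each (0.603%). All were searched on both strands. A match is a description of letters and not a site of binding.

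**Figure D2:**
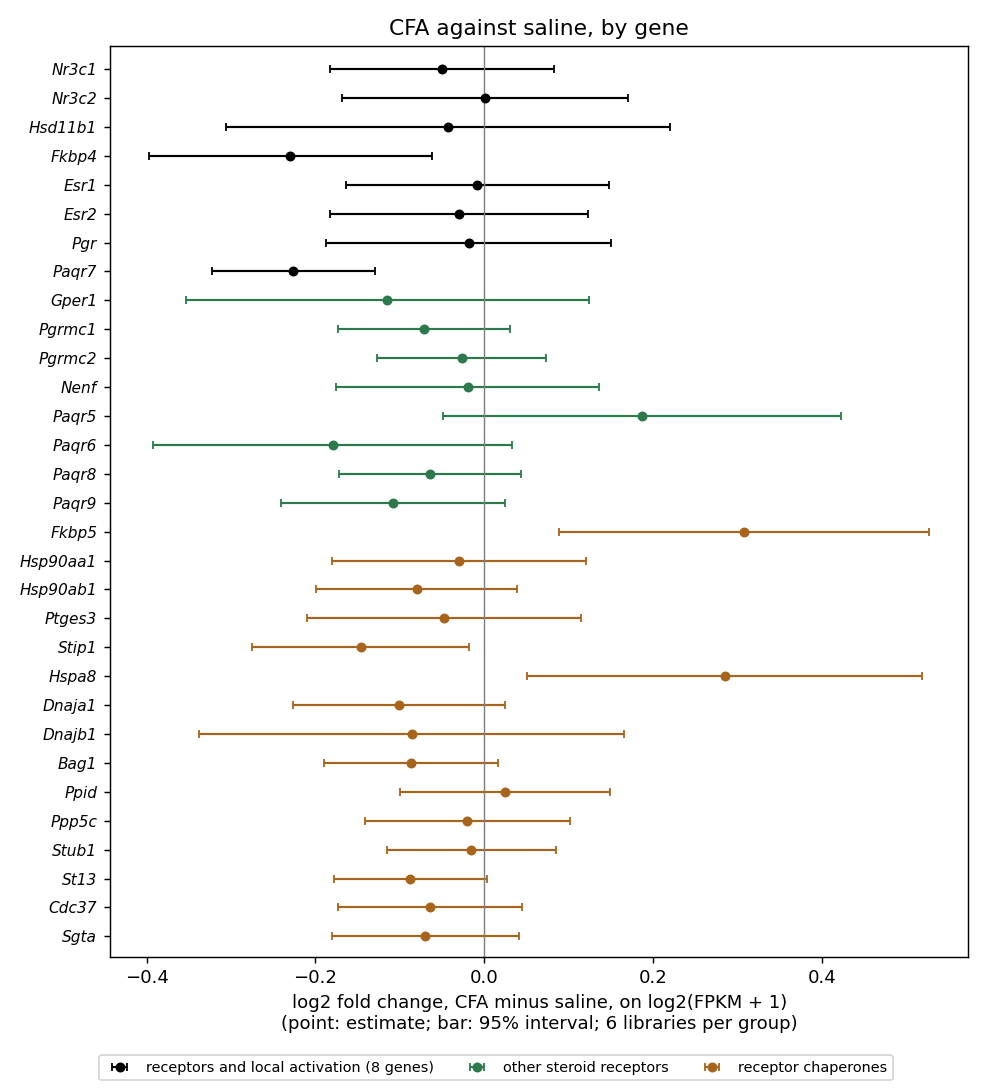
Log2 fold change (CFA less saline, of log2(FPKM + 1)) with 95% intervals (6 libraries per group) for the 8 genes, 8 other steroid receptor genes and 15 receptor chaperone genes, 1 per row. Intervals of Paqr7 (-0.32 to -0.13) and Fkbp4 (-0.40 to -0.062) lie below 0 and that of Fkbp5 (0.088 to 0.53) above it, as do those of Stip1 (below) and Hspa8 (above), before any adjustment for the number of genes tested.

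The corticosteroid receptor genes did not differ between groups beyond their spread. Nr3c1 (ENSMUSG00000024431, chromosome 18, 39410545 to 39491301, minus strand), the glucocorticoid receptor gene, had a lowest, median and highest level of 13.6, 15.5 and 17.4 FPKM in CFA libraries, against 14.9, 15.7 and 17.3 FPKM in saline libraries. CFA 4 and CFA 6 lay below the saline range and CFA 1 matched the highest saline library. Its log2 fold change was -0.050 (SE 0.062, limma adjusted p = 0.893), with a 95% interval for the ratio of 0.881 to 1.06. Nr3c2 (ENSMUSG00000031618, chromosome 8, 76899442 to 77245012, plus strand), the mineralocorticoid receptor gene, had 11.3, 13.5 and 15.1 FPKM as lowest, median and highest in CFA libraries, against 11.6, 13.1 and 15.04 FPKM in saline libraries. The ranges were nearly the same, with a log2 fold change of 0.00086 (SE 0.079, limma adjusted p = 0.998) and an interval for the ratio of 0.890 to 1.13. Of its 6474 exon bases, 247 are shared with the lncRNA gene Gm10649 on the other strand, and the strand setting of the counting is unknown here. The intervals of Nr3c1 and Nr3c2 bound the difference in either direction and do not show that the levels were equal. Over the libraries with Xist, the log2 fold change of Nr3c2 was -0.17 (limma adjusted p = 0.999).

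The balance of the corticosteroid receptors within a library does not depend on its scaling. The ratio of Nr3c2 to Nr3c1 was 0.867 ± 0.0708 in CFA and 0.837 ± 0.0866 in saline (SD, n = 6 each), with ranges of 0.752 to 0.937 in CFA and 0.720 to 0.988 in saline. The saline range enclosed the CFA range. In all 12 libraries the glucocorticoid receptor transcript was thus the more abundant of the pair per length, by the deposited gene lengths. For Nr3c1 that length is 7425 bases, against 7684 exon bases in GENCODE M21. The order in saline 2, whose ratio was 0.988, may therefore depend on the length used.

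Hsd11b1 (ENSMUSG00000016194, chromosome 1, 193221634 to 193264075, minus strand), encoding the enzyme that regenerates corticosterone, had 2.61, 3.48 and 4.77 FPKM as lowest, median and highest in CFA libraries, against 2.47, 3.84 and 4.67 FPKM in saline libraries. Both groups covered almost the same range, CFA 2 and saline 6 being highest and CFA 6 and saline 1 lowest. The log2 fold change was -0.043 (SE 0.12, limma adjusted p = 0.964), and its interval for the ratio, 0.809 to 1.16, was the widest of the 6 tested members. The added 1 narrows this interval: the SE of Hsd11b1 was 0.153 with 0.1 added and 0.152 by voom on recovered reads. The opposing enzyme gene Hsd11b2, which inactivates corticosterone in kidney, was listed at 0.0289 to 0.109 FPKM in CFA libraries and 0.0155 to 0.114 FPKM in saline libraries, and did not pass the filter on low values. H6pd, whose product supplies the cofactor of the Hsd11b1 enzyme in the endoplasmic reticulum, averaged 1.47 ± 0.257 FPKM in CFA and 1.75 ± 0.184 FPKM in saline (SD, n = 6 each, log2 fold change -0.16, limma adjusted p = 0.663).

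Among the sex steroid receptors, Pgr (ENSMUSG00000031870, chromosome 9, 8899833 to 8968611, plus strand), the nuclear progesterone receptor gene, had 3.69, 4.13 and 5.01 FPKM as lowest, median and highest in CFA libraries, against 3.59, 4.40 and 4.89 FPKM in saline libraries. The CFA range enclosed the saline range but for saline 3. Its log2 fold change was -0.019 (SE 0.078, limma adjusted p = 0.978), with a ratio of 0.878 to 1.11 as 95% interval. The SE of Pgr was 0.094 with 0.1 added in place of 1, and 0.089 by voom on recovered reads. The nuclear and the membrane progestin receptor genes had log2 fold changes of -0.019 for Pgr and -0.23 for Paqr7, and the difference between these values was not tested.

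Esr1 (ENSMUSG00000019768, chromosome 10, 4611593 to 5005614, plus strand), for oestrogen receptor alpha, had 0.426, 0.573 and 0.682 FPKM as lowest, median and highest in CFA libraries, against 0.332, 0.572 and 0.722 FPKM in saline libraries. CFA 1 and saline 3 were the low libraries of their groups, and the medians were almost equal. Over its long transcript, 13661 bases in the table, Esr1 collected 163 to 376 reads per library. The log2 fold change was -0.0080 (SE 0.072, limma adjusted p = 0.988 over 34499 genes; exact permutation p = 0.909, two-sided). Esr2 (ENSMUSG00000021055, chromosome 12, 76120419 to 76177259, minus strand), for oestrogen receptor beta, had 0.0822, 0.241 and 0.408 FPKM in CFA libraries, against 0.124, 0.272 and 0.440 FPKM in saline libraries, in the same order. It rested on 11 to 54 reads per library. The 11 reads of CFA 1 have an exact 95% Poisson interval of 5.49 to 19.7 reads and the 54 of saline 6 one of 40.6 to 70.5, and these cover counting error only. With a log2 fold change of -0.030 (SE 0.070, limma adjusted p = 0.932 over 34499 genes; exact permutation p = 0.677, two-sided), no difference was detectable at this depth. The added 1 narrows this SE for so low a gene: with 0.1 added the log2 fold change of Esr2 was -0.12 (SE 0.29), and by voom on recovered reads it was -0.19 (SE 0.38). For Esr1 the SE was 0.19 with 0.1 added and 0.17 by voom, at log2 fold changes of -0.0073 and -0.00051.

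Members were compared with each other across libraries on the log2(FPKM + 1) scale, 28 pairs in all. Pearson's r was positive for 21 pairs and negative for 7, and 1 pair, Fkbp4 with Paqr7, had an adjusted permutation p under 0.05 by Pearson's r while 0 pairs had one by Spearman's rho. Since Paqr7 separates the groups, that pair was taken within each group. Within CFA, r was 0.867 (exact permutation p = 0.0611, adjusted over 56 within-group relations 0.537) and rho was 0.60 (exact permutation p = 0.242, adjusted 0.940). Without the 2 libraries farthest from the median of Fkbp4, r in the 4 remaining CFA libraries was -0.83, so the relation rested on CFA 4 and CFA 6. Within saline, r was 0.12 (exact permutation p = 0.803, adjusted 0.977) and rho was 0.029 (exact permutation p = 1.0, adjusted 1.0). The next pair across all 12 libraries was Esr1 with Esr2, with r = 0.717 (permutation p = 0.00868, adjusted 0.0905) and rho = 0.469 (permutation p = 0.129, adjusted 0.491). Its r without the 2 libraries farthest in Esr1, saline 3 and CFA 1, was 0.431. Within CFA the r of Esr1 with Esr2 was 0.730 (exact permutation p = 0.107, adjusted 0.544), rho was 0.486 (exact permutation p = 0.356, adjusted 0.940) and r was -0.92 without the 2 farthest libraries, so it rested on those. Within saline it was 0.750 (exact permutation p = 0.0903, adjusted 0.537), with rho = 0.543 (exact permutation p = 0.297, adjusted 0.940) and r = 0.734 without the 2 farthest. Nr3c1 with Pgr had r = 0.709 (permutation p = 0.00970, adjusted 0.0905) and rho = 0.811 (permutation p = 0.00195, adjusted 0.0546), and r = 0.541 without CFA 6 and CFA 4. Within CFA the r of Nr3c1 with Pgr was 0.936 (exact permutation p = 0.0125, adjusted 0.537), against 0.277 within saline (exact permutation p = 0.578, adjusted 0.963). Its rho within CFA was 1.0 (exact permutation p = 0.00278, adjusted 0.156), and r was 0.885 without the 2 farthest libraries. Within saline the rho of this pair was 0.314 (exact permutation p = 0.564), and r was -0.13 without the 2 farthest.

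**Figure D3:**
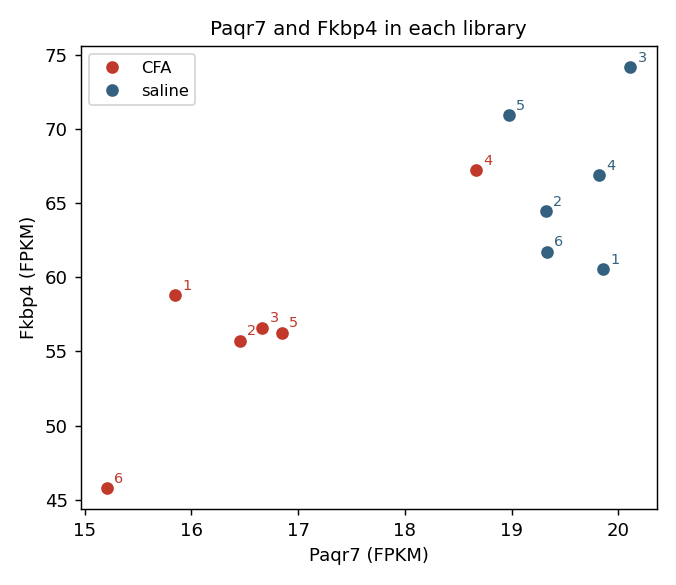
Fkbp4 against Paqr7, both in FPKM, in each library, with CFA in red, saline in blue and the replicate number beside each point; the axes do not start at 0. CFA 4 lies near the saline libraries on both axes and CFA 6, at 15.2 FPKM of Paqr7 and 45.8 FPKM of Fkbp4, is lowest on both.

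The genes most like each member across the 12 libraries were taken by Pearson's r among 11993 tested genes with a standard symbol. No p is given for them because each was picked as the highest of those genes, and they share depth and dissection with the member. For Paqr7 they were Map1a, a microtubule-associated protein gene of neurons (r = 0.943, rho = 0.923, and r = 0.895 without CFA 6 and CFA 1), and the histone gene H2afj (r = 0.911, rho = 0.916). Map1a had a log2 fold change of -0.18 (limma adjusted p = 0.308) and H2afj -0.40 (limma adjusted p = 0.140). The r of Map1a with Paqr7 was 0.922 within CFA and 0.433 within saline, and that of H2afj with Paqr7 was 0.666 within CFA and 0.671 within saline. For Fkbp4 they were Pcca (r = 0.941, rho = 0.839), a mitochondrial carboxylase subunit gene, and Ttll5 (r = 0.940, rho = 0.881). Nr3c1 lay nearest to the chaperonin subunit gene Cct2 (r = 0.953, rho = 0.958) and to Ostf1 (r = 0.906, rho = 0.846). Nr3c2 was nearest to Arid2 (r = 0.914, rho = 0.902), a chromatin remodelling subunit gene, and to Cnnm1 (r = 0.888, rho = 0.930). Pgr was nearest to Pgap1 (r = 0.942, rho = 0.972) and Impact (r = 0.937, rho = 0.944), and Hsd11b1 to Hs3st2 (r = 0.876, rho = 0.853) and Rgs22 (r = 0.869, rho = 0.818).

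The chaperone genes that load steroid receptors were mostly at small negative values. Of 15 listed, 15 were tested, 3 were positive (Fkbp5, Hspa8 and Ppid) and 12 negative, the median was -0.064 and 0 passed. Over all genes tested, 48% were positive and the median was -0.0043. At an unadjusted p under 0.05 there were 3 chaperone genes (20%), 2 higher and 1 lower in CFA, beside 7.67% of all genes tested. Fkbp5, encoding the co-chaperone that opposes receptor activation, had 6.31, 8.62 and 11.3 FPKM as lowest, median and highest in CFA libraries, against 5.78, 6.57 and 7.22 FPKM in saline libraries (log2 fold change 0.31, SE 0.10, limma adjusted p = 0.436). CFA 6 was highest and CFA 1 lay within the saline range. Hspa8, the constitutive Hsc70 chaperone gene, averaged 431 ± 30.1 FPKM in CFA and 358 ± 69.2 FPKM in saline (SD, n = 6 each, log2 fold change 0.29, limma adjusted p = 0.560). Stip1, encoding the adaptor that passes receptors from Hsp70 to Hsp90, averaged 107 ± 8.74 FPKM in CFA and 118 ± 7.63 FPKM in saline (SD, n = 6 each, log2 fold change -0.15, limma adjusted p = 0.603). St13, an Hsp70 interacting protein gene, had -0.088 (limma adjusted p = 0.663). The Hsp90 genes themselves, Hsp90aa1 and Hsp90ab1, had -0.030 and -0.080.

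The log2 fold changes of Fkbp5 and Fkbp4 had opposite signs. The ratio of Fkbp5 to Fkbp4 was 0.154 ± 0.0493 in CFA and 0.1003 ± 0.0144 in saline (SD, n = 6 each). Of the CFA libraries 5 lay above every saline library, whose highest was 0.118, and CFA 1, at 0.107, lay within their range. CFA 6 had the highest ratio, 0.246. The ratio is given with no test because both genes were chosen with earlier results of these data known. Fkbp5 is itself induced by glucocorticoids and is in the glucocorticoid responsive list, which was also chosen with earlier results of these data known. Whether glucocorticoids had a part in the values of Fkbp5 or of this list was not tested. Of 18 tested genes of the list, 18 were positive with a median of 0.28 and 0 passed the threshold. At an unadjusted p under 0.05 there were 12 (66.7%), all higher in CFA, beside 7.67% of all genes tested, and 48% of all genes tested were positive. The smallest p in that list belonged to Cdkn1a, a cell cycle inhibitor gene (log2 fold change 0.50, limma adjusted p = 0.140), Arrdc2 (0.71, adjusted p = 0.165), the pyruvate dehydrogenase kinase gene Pdk4 (0.37, adjusted p = 0.169) and Map3k6 (0.33, adjusted p = 0.285).

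**Figure D4:**
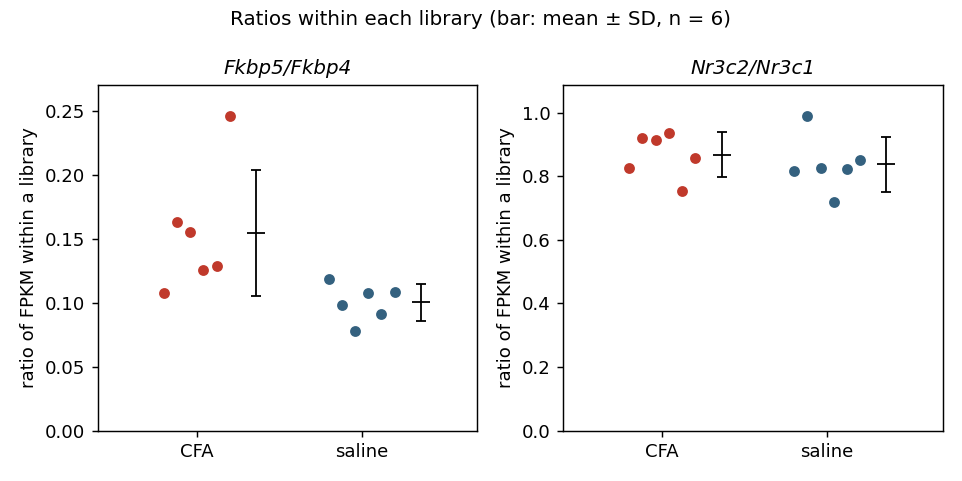
Ratio of FPKM within each library for Fkbp5 to Fkbp4 (left panel) and Nr3c2 to Nr3c1 (right panel), CFA left and saline right in each, axes from 0, with mean ± SD (n = 6 per group). For Fkbp5 to Fkbp4, 5 of 6 CFA points exceed the highest saline ratio of 0.118, while the Nr3c2 to Nr3c1 points of both groups share 1 range.

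No other steroid receptor gene of the list passed the threshold. Of 8 listed, 8 were tested, 1 was positive and 7 negative, with a median of -0.068 and 0 at an unadjusted p under 0.05. Over all genes tested, 48% were positive and 7.67% had an unadjusted p under 0.05. Gper1, encoding a membrane oestrogen receptor, averaged 1.19 ± 0.244 FPKM in CFA and 1.38 ± 0.374 FPKM in saline (SD, n = 6 each, log2 fold change -0.11, limma adjusted p = 0.854). Of the relatives of Paqr7, Paqr6 had -0.18 (limma adjusted p = 0.719), Paqr9 -0.11 (adjusted p = 0.734), Paqr8 -0.065 (adjusted p = 0.809) and Paqr5 0.19 (adjusted p = 0.739). Paqr8, for the beta form, was the most abundant of the Paqr genes described here, at 50.7 ± 3.22 FPKM in CFA and 53.1 ± 2.90 FPKM in saline. Pgrmc1, a haem-binding progesterone receptor component, stood far above it at 251 ± 17.4 FPKM in CFA and 263 ± 6.37 FPKM in saline (log2 fold change -0.071, limma adjusted p = 0.777).

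Genes of steroid synthesis and conversion were measured for 34 of 36 listed, and 16 were tested. Of these 8 were positive and 8 negative, with a median of -0.013, 0 past the threshold and 1 at an unadjusted p under 0.05 (6.25%, beside 7.67% of all genes tested). Sult1a1, a sulfotransferase gene also in the glucocorticoid responsive list, had the smallest p, at 5.86 ± 0.564 FPKM in CFA and 5.06 ± 0.424 FPKM in saline (SD, n = 6 each, log2 fold change 0.18, limma adjusted p = 0.519). Hsd17b10, a mitochondrial hydroxysteroid dehydrogenase gene, had 0.15 (limma adjusted p = 0.654), and Cyp7b1, which hydroxylates neurosteroids, -0.13 (limma adjusted p = 0.790). The 18 untested genes averaged under 1 FPKM, 15 of them under 0.1 FPKM and 4 listed at 0 in all 12 libraries. Cyp19a1, the aromatase gene that makes oestrogens from androgens, was 0.0786 ± 0.0755 FPKM in CFA and 0.0932 ± 0.0575 FPKM in saline. Receptor coregulator genes had 10 positive and 4 negative among 14 tested (median 0.033, 0 past the threshold and 0 at an unadjusted p under 0.05). Over all genes tested, 48% were positive. Ncoa2 and Ncoa1, steroid receptor coactivator genes, had 0.085 (limma adjusted p = 0.752) and 0.063 (adjusted p = 0.818). Smarca4, encoding a chromatin remodelling ATPase, had -0.075 (adjusted p = 0.779), and Phb2, a repressor of oestrogen receptor activity, 0.054 (adjusted p = 0.828).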

How the data were processed

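The authors deposited FPKM per gene and library. Reads of 150 bases came from an Illumina NovaSeq, with 0.2 µg RNA per library, per the labels' protocols, and were aligned with HISAT2 2.0.5 to mm10, per the submitters' processing notes. How reads were counted, with which strand setting and annotation, is not given in the sources used here. FPKM times the gene length in the deposited table moved in whole steps, from which reads were recovered, 100% within 0.01 of a whole number. A further 6 columns, in another table, matched no sample and were not used. Every pair of libraries differed beyond counting error, the most alike being saline 4 and saline 6 (chi-square over degrees of freedom 6.78), so each counted once. Coordinates are those of the table, and for 7 of the 8 members they equal those of GENCODE M21, Nr3c1 being the exception. Promoter sequences are from RefSeq, and those of 7 members were searched.

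On log2(FPKM + 1), limma 3.58.1 (R 4.3.3) was run with a mean-variance trend. It was also run on simulated data, the outcome of which is not given here and supports no result above. The replicate numbers were not used as a block. Count models, planned as alternatives, were left out, and voom on recovered reads was added in their place. Correlations used 100000 resamples, or all 720 orders of 6 libraries, two-sided. Named genes were the members, up to 4 genes per list with the smallest p, Hsd11b2, Fkbp5, Pgrmc1 and Cyp19a1, the 2 genes most like each member with at least 1 FPKM, and Xist, Ddx3y and Ttr. A further gene of the rule is not reported here. Gper1, Paqr8, Hsp90aa1, Hsp90ab1, Ppid and the neighbours of Fkbp4 and Paqr7 fall outside the rule and were chosen after their values were seen. Members and lists were chosen with earlier results of these data known. Other steps used numpy 2.4.6, pandas 2.3.3 and scipy 1.17.1 under Python 3.11.15.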

Additional observations from a re-analysis of the deposited data

How the results depend on the processing

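Under 28 alternatives, 220 member values were computed and 1 passed the threshold, Paqr7 without CFA 4 (-0.26, limma adjusted p = 0.0248). In that fit 6 genes passed, 0.045% of all genes tested. Paqr7, Fkbp4 and Nr3c1 were negative in all of them. Values near 0 turned sign: as TPM for Esr1 (0.018) and Pgr (0.015), with Xist as a covariate (-0.030), over the libraries with Xist (-0.17) and with hypothalamic markers as a covariate (-0.0088) for Nr3c2, and with striatal markers as a covariate for Hsd11b1 (0.088), Esr1 (0.023) and Esr2 (0.029). The count of 4 genes past the threshold was 2 with no filter, 2 without the trend, 13 with striatal markers as a covariate, and 1 with Xist as a covariate, over the libraries with Xist or with a replicate block. The chaperone median of -0.064 became -0.11 over the libraries with Xist and -0.028 as TPM, and the synthesis median was 0.040 with striatal markers. As TPM the median of all genes tested also rose, from -0.0043 to 0.033. The cause of the other changes was not tested.

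Leaving out 1 library gave 1 to 11 genes past the threshold (11 without saline 3, 10 without CFA 1, 2 without saline 2 or saline 4, 1 without CFA 6 or saline 5), and log2 fold changes of -0.26 to -0.20 for Paqr7, -0.28 to -0.17 for Fkbp4, -0.085 (without CFA 1) to -0.019 (without CFA 6) for Nr3c1, -0.035 to 0.043 for Nr3c2, -0.12 to 0.019 for Hsd11b1, -0.055 to 0.019 for Esr1, -0.067 to 0.0091 for Esr2 and -0.062 to 0.015 for Pgr. With the replicate number as a block, Paqr7 was -0.23 (adjusted p = 0.282). Same-numbered libraries had correlations of deviations of -0.012 to 0.16, with CFA 1, 4 and 5 most like the saline library of their own number. This is a hint from the data, but the labels give no pairing. Only the correlations of numbers 1 and 4 exceeded 0.1 (0.14 and 0.16), so the numbers were not taken as pairs. The covariates of oligodendrocyte and hypothalamic markers and voom were chosen after seeing the data. The planned edgeR and DESeq2 tests on recovered reads were not run, and voom was used in their place. Depth limits Esr2 most. Filtering at 5 FPKM gave no value for Hsd11b1, Pgr, Esr1 and Esr2.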

Other observations

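Fkbp4 lies on chromosome 6 beside Itfg2 and Nrip2, neighbours chosen after their values were seen. Nrip2, a nuclear receptor interacting protein gene 13307 bases from Fkbp4, averaged 5.32 ± 0.495 FPKM in CFA and 7.42 ± 0.610 FPKM in saline (SD, n = 6 each) and was among the genes that passed (log2 fold change -0.42, limma adjusted p = 0.0436). Itfg2, 4803 bases from Fkbp4, averaged 3.02 ± 0.726 FPKM in CFA and 3.55 ± 0.211 FPKM in saline (log2 fold change -0.20, limma adjusted p = 0.693). The tested genes within 60000 bases of Paqr7 had values nearer to 0, among them Mtfr1l (-0.015), Selenon (-0.022) and Stmn1 (0.043). Nrip2 and Itfg2 lie on opposite strands and share 155 exon bases in GENCODE M21, of 3757 in Nrip2 and 7096 in Itfg2. Whether the values of neighbouring genes are linked was not tested. Of 22 groups of 6 values (the members, Fkbp5 and the 2 ratios, each in CFA and in saline), 0 held a library beyond Dixon's 95% critical value, where chance gives about 1 in 20.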
